A study of Mus musculus with 4 samples.

Results

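Translation initiation factors are the proteins that bring the ribosome, the initiator tRNA and a messenger RNA together at the start codon. The probes described here are those whose target name in the deposited non-normalized table begins with EIF followed by a digit. That rule took 87 of the 45281 probes on the array, under 46 target names that correspond to 45 mouse genes. It holds the eIF1A, eIF2, eIF3, eIF4 and eIF5 families, the guanine nucleotide exchange factor eIF2B, 3 of the kinases that phosphorylate eIF2, the eIF4E-binding proteins and the Argonaute genes, which once carried the name EIF2C. The rule reads target names and no measured value.

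The arrays held total RNA of subcutaneous white adipose tissue from C57BL/6 mice 8 to 12 weeks old, with 2 wild-type arrays (WT 1 and WT 2) and 2 arrays of FtMT-Adip mice, which carry a fat-specific transgene for mitochondrial ferritin, an iron-storing protein of the mitochondrion. Both genotypes were fed Dox-HFD, a high-fat diet with Dox, for 3 weeks. The labels do not name the promoter that drives the transgene, and they leave unstated if the RNA on an array came from 1 mouse or from several, so the p-values below measure the spread between these arrays only, which may in part be technical. The design asks which transcripts differ between FtMT-Adip and WT fat on this diet.

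Initiation is controlled at 2 main steps. In the first, eIF2 carries the initiator tRNA to the ribosome as a complex with GTP, and eIF2B recharges it with GTP after each round. Kinases of the EIF2AK group phosphorylate the alpha subunit of eIF2 under stress (HRI under heme or iron shortage and mitochondrial stress, PKR with double-stranded RNA, PERK with unfolded protein in the endoplasmic reticulum, GCN2 with amino acid shortage), and phosphorylated eIF2 blocks eIF2B, which lowers general translation while the messenger RNA of the transcription factor ATF4 is translated more. In the second, eIF4E binds the cap, eIF4G is the scaffold and eIF4A the helicase that opens the leader, and the eIF4E-binding proteins hold eIF4E away from eIF4G unless the kinase mTORC1 phosphorylates them. These controls act largely on proteins and their phosphorylation, which arrays of RNA do not measure.

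The arrays were close in brightness, with a median signal of 116.5 to 119.0 and 19717 to 20427 probes above background, where background is the 95th percentile of 1479 probes for olfactory and vomeronasal receptors on the same array. Signals below are the non-normalized fluorescence of the deposited table, in arbitrary units, and log2 changes (FtMT-Adip minus WT) come from background-corrected, quantile-normalized values fitted with limma over all 20797 probes that were above background on at least 2 arrays. A probe is called when its Benjamini-Hochberg adjusted p over all those probes is under 0.05. The probe for the mouse gene Ftmt read 102.1 and 110.6 on the WT arrays, against 104.9 and 106.8 on the FtMT-Adip arrays, below background on every array. Whether it matches the transgene's transcript is not known here, so it does not check the labels. Of markers of the tissue, 8 of 13 tested adipocyte genes fell and none rose, with the adiponectin gene Adipoq at 13871.8 and 14168.4 in the WT arrays and at 4405.4 and 6069.4 in the transgenic ones. Fabp4 and Retn, both among the genes that fell, were above background on the WT arrays only and entered the test through that group. Of macrophage genes 11 of 12 rose, and of endothelial genes 3 of 8 fell. Of fibroblast genes 1 of 8 rose, of mast cell genes 3 of 5 rose and 1 fell, and of neutrophil genes 1 of 4 fell, while none of 7 lymphocyte genes was called. Among epithelial genes, Epcam was below background on every array, and Krt8 alone was tested and was not called, with 313.5 in FtMT-Adip 1 against 129.1, 133.2 and 139.9 on the other arrays. Of 9 tested skeletal muscle genes 2 rose, and FtMT-Adip 1 stood apart, with a mean log2 signal of 10.1 over these genes against 7.22 and 7.64 in WT and 7.87 in FtMT-Adip 2. Fewer cells of a type and less RNA per cell cannot be told apart in such tissue RNA, and the part these shifts play in the values below was not tested.

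Transcripts of the initiation factors differed little between the genotypes. Of the 87 probes, 67 were tested and stood for 37 genes, with 59 of them above background on all 4 arrays. None was called higher in FtMT-Adip and 1 was called lower (1.49% of the tested members), where 3.28% of all tested probes were called higher, 4.16% lower and 7.44% in either direction. The called probe belongs to Eif2s3y. By unadjusted p under 0.05, 8 of the 67 probes (11.9%) differed, 3 higher and 5 lower, against 21.4% of all tested probes. The arrays of the groups did not overlap on the normalized scale for 32 member probes (47.8%), 15 of them higher and 17 lower, against 51.5% of all tested probes. An equal-variance test run probe by probe, without limma's sharing of the spread, called none of the members and 2 of all tested probes (0.00962%). At an unadjusted p under 0.05 it had 5 members, against 13.1% of all tested probes.

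The size of the differences was small as well. Changes were positive for 31 and negative for 36 of the tested probes, with a median of -0.02 against 0.00 over all tested probes. The median absolute log2 change was 0.115 for the members and 0.149 for all tested probes. Only 3 member probes (4.48%) passed an absolute log2 change of 0.5, against 11.03% of all tested probes. The 95% intervals of 66 of the 67 probes lay wholly within a log2 change of 1 in either direction, so for these probes a change of 2-fold or more on this scale lies outside the interval. Standard errors of the members ran from 0.0846 to 0.282 with a median of 0.153, and the smallest absolute log2 change that was called anywhere on the array was 0.325. A p that missed the threshold does not show equal levels. The added offset in the background correction also shrinks the log2 changes of dim probes.

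**Figure D1:**
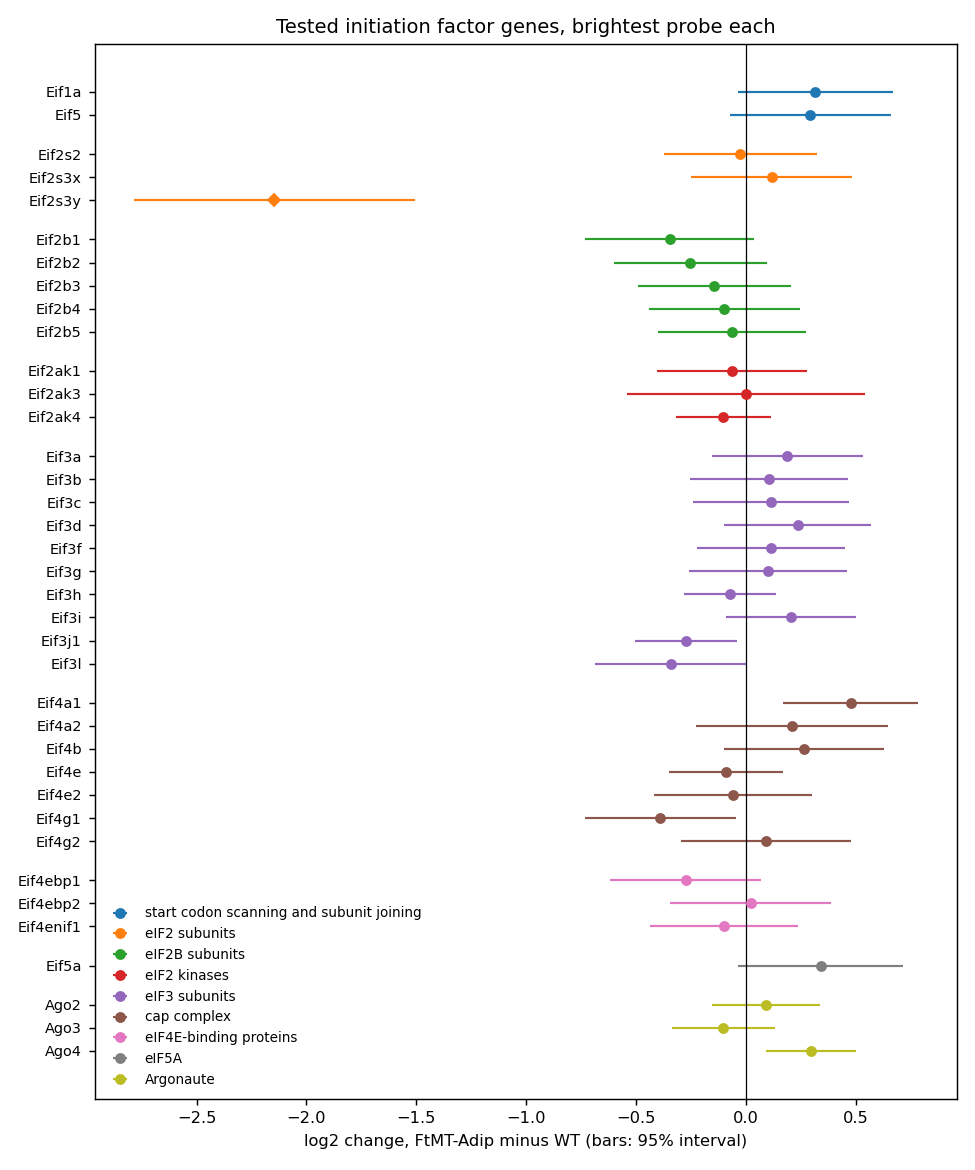
Log2 change (FtMT-Adip minus WT, horizontal axis) of the 37 tested genes, each by its brightest tested probe, grouped by role, with bars for the 95% interval of the limma fit. The diamond marks the single called gene, Eif2s3y at -2.15, and every other point lies between -0.39 and 0.48.

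Eif2s3y was the single member with a called probe, and the call rests on 1 of its 2 probes. It encodes the gamma subunit of eIF2, the subunit that binds GTP and the initiator tRNA, from the Y chromosome, and its X-linked copy Eif2s3x encodes a near-identical protein. The promoters of the pair are shown because the array has probes for each copy and the result turns on the Y-linked one. Each stretch runs from 250 bases before to 50 bases after the gene's start in RefSeq's annotation of GRCm38.p6. Capitals mark the longest run of letters that both stretches share, 12 bases, which begins at position 16 after the start in Eif2s3y and at position 12 in Eif2s3x. The Eif2s3y stretch is chrY:1010345-1010644 on the plus strand and that of Eif2s3x is chrX:94212602-94212901 on the minus strand.
Eif2s3y: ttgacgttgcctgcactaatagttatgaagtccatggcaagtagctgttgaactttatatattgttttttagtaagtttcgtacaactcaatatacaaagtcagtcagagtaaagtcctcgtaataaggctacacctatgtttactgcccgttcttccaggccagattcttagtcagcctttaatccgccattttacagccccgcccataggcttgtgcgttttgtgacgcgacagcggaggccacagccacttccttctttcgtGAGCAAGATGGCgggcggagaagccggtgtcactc
Eif2s3x: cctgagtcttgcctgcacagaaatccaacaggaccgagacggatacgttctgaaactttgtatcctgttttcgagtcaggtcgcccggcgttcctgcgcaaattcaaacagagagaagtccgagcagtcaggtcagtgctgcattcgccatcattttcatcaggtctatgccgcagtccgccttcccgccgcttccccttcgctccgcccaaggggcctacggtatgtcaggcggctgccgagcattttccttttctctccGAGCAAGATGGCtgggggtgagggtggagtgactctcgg

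The brighter Eif2s3y probe (ILMN_1241001, probe A in the plot) read 253.3 and 453.2 in the WT arrays and 113.7 and 112.6 in the FtMT-Adip arrays. Both WT arrays were above background and both FtMT-Adip arrays were below it, so the groups did not overlap and the FtMT-Adip level has only an upper bound. The probe entered the test through the group where it was high. On the normalized log2 scale the WT mean was 8.20 ± 0.744 (SD, n = 2) and the measured FtMT-Adip mean 6.05 ± 0.0512 (SD, n = 2). With the dim arrays at the lowest signal counted as above background, the transcript was at least 3.90-fold lower in FtMT-Adip, where the fold compares group means. The fitted log2 change, measured against arrays below background, was -2.15 (SE 0.282, 95% interval -2.79 to -1.51, limma adjusted p = 0.00337). It ran from -2.66 without WT 1 to -1.63 without WT 2, and stayed past the threshold in each of those fits.

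The second Eif2s3y probe (ILMN_1215914, probe B) did not share this difference. It read 126.1 and 124.1 on the WT arrays, against 122.7 and 126.0 on the FtMT-Adip arrays, a few units above background on every array, with a log2 change of -0.03 (SE 0.0884, limma adjusted p = 0.875). The X-linked Eif2s3x read 843.9 and 746.1 in the WT arrays and 753.5 and 960.7 in the FtMT-Adip arrays, with FtMT-Adip 1 among the WT arrays. Its log2 change was 0.12 (SE 0.161, 95% interval -0.25 to 0.48, limma adjusted p = 0.745).

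Other sex-linked genes did not show a difference of this size. Ddx3y, a Y-linked RNA helicase gene related to the initiation helicases, read 1178.2 and 1130.8 on the WT arrays, against 895.3 and 943.5 on the FtMT-Adip arrays, above background on all 4 arrays. The groups did not overlap, and its log2 change was -0.33 (SE 0.147, limma adjusted p = 0.247). Kdm5d, a Y-linked histone demethylase gene, read 159.4 and 153.7 in the WT arrays and 158.6 and 149.7 in the FtMT-Adip arrays, also above background on all 4, with overlapping groups. Uty, another Y-linked demethylase gene, read 125.7 and 135.0 on the WT arrays, against 125.3 and 119.0 on the FtMT-Adip arrays. Xist, the RNA that silences an X chromosome in females, had 3 probes below background on every array, and its remaining probe read 130.8 and 111.0 in the WT arrays and 122.5 and 116.8 in the FtMT-Adip arrays. All 4 arrays thus carried signal from the Y-linked genes Ddx3y and Kdm5d, each through a single probe. The other probes of Ddx3y, Kdm5d and Uty were below background on every array. The labels give the strain C57BL/6 for both groups and no sex of the animals. What sets the reading of the first Eif2s3y probe apart from the second was not tested.

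**Figure D2:**
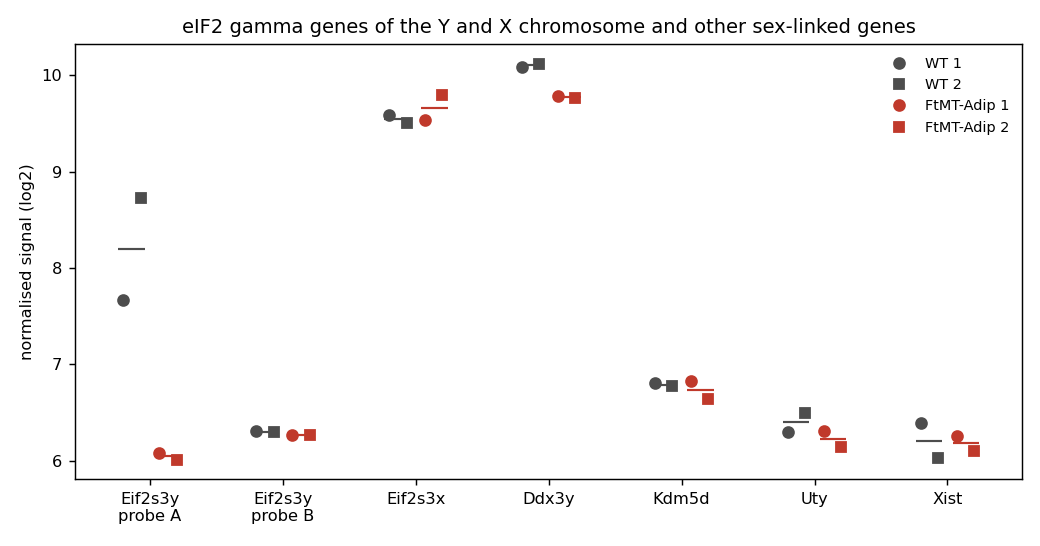
Normalized log2 signal of each array (points; circles are replicate 1 and squares replicate 2, grey WT and red FtMT-Adip; lines are group means of 2 arrays) for the eIF2 gamma genes and other sex-linked genes. Eif2s3y probe A separates the groups (log2 change -2.15). Ddx3y differs between groups by -0.33, and probe B, Eif2s3x, Kdm5d, Uty and Xist by -0.17 to 0.12.

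The remaining subunits of eIF2 gave no called difference. Eif2s2, the beta subunit, read 720.9 and 750.8 on the WT arrays, against 691.1 and 767.2 on the FtMT-Adip arrays, with overlapping groups and a log2 change of -0.03 (95% interval -0.37 to 0.32, limma adjusted p = 0.952). Its second probe gave -0.08. Eif2s1, the alpha subunit that carries the phosphorylation site, read 115.0 and 119.4 in the WT arrays and 132.2 and 118.1 in the FtMT-Adip arrays, above background in FtMT-Adip 1 alone, and was not tested.

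The eIF2 kinases named by the rule showed no called difference either. Eif2ak1, which encodes HRI, read 413.5 and 383.4 on the WT arrays, against 361.1 and 421.6 on the FtMT-Adip arrays. The FtMT-Adip arrays lay on both sides of the WT arrays, and the log2 change was -0.06 (SE 0.150, 95% interval -0.40 to 0.28, limma adjusted p = 0.865), which turned to 0.33 with the authors' normalized values. Eif2ak3, which encodes PERK, read 160.8 and 234.8 in the WT arrays and 208.8 and 185.2 in the FtMT-Adip arrays. Both FtMT-Adip arrays lay between the WT arrays, with a log2 change of 0.00 and a wide 95% interval of -0.54 to 0.54, and its 2 other probes were below background. Leaving out WT 1 gave -0.39 and leaving out WT 2 gave 0.39. Eif2ak4, which encodes GCN2, read 121.4 and 126.6 on the WT arrays, against 115.2 and 124.2 on the FtMT-Adip arrays, near background throughout, with a log2 change of -0.10 (95% interval -0.32 to 0.11).

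The kinase of the group with the largest difference is listed on the array under an older name and so lies outside the rule. Eif2ak2, listed as PRKR, encodes PKR, which binds double-stranded RNA and is itself induced by interferon. It read 513.3 and 555.8 in the WT arrays and 733.0 and 898.4 in the FtMT-Adip arrays, so the groups did not overlap. Its log2 change was 0.63, or 1.55-fold (SE 0.164, 95% interval 0.26 to 1.01), with a limma adjusted p of 0.0519 that just missed the threshold. The adjusted p was 0.0464 with cyclic loess normalization, 0.0435 with only probes above background on all 4 arrays and 0.0423 without a variance trend, while the authors' normalized values gave 0.10 (adjusted p = 0.92). Interferon-stimulated genes as a list had 12 of 17 tested genes called higher and none lower, with a median log2 change of 1.01 against 0.00 over all tested probes. The largest changes among them were those of the antiviral genes Rsad2 (2.10), Ifit3 (1.87), Oas2 (1.82) and Oasl2 (1.79). The call of Rtp4 was lost without each array in turn, and those of Rtp4, Stat2 and Bst2 with the authors' normalized values.

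Genes of eIF2B, the factor that phosphorylated eIF2 blocks, leaned downward without a call. All 8 probes of its 5 subunits were tested, 7 had a negative log2 change, and for 6 of them both FtMT-Adip arrays lay below both WT arrays on the normalized scale, where 51.5% of all tested probes had groups apart in one direction or the other. Eif2b1, the regulatory alpha subunit, read 585.3 and 451.7 on the WT arrays, against 392.1 and 452.7 on the FtMT-Adip arrays with its brighter probe (ILMN_1215242, probe A), whose log2 change was -0.35 (SE 0.169, limma adjusted p = 0.285). The other probe (ILMN_2600508, probe B) read 296.9 and 250.6 in the WT arrays and 205.1 and 215.7 in the FtMT-Adip arrays, with -0.50 (SE 0.150, limma adjusted p = 0.0854). Both probes of Eif2b1 were thus lower in FtMT-Adip after normalization, and neither passed the threshold.

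Eif2b2, the beta subunit, read 443.2 and 417.0 on the WT arrays, against 380.6 and 368.5 on the FtMT-Adip arrays, with a log2 change of -0.25 (95% interval -0.60 to 0.09, limma adjusted p = 0.396). Eif2b3, the gamma subunit that pairs with the catalytic one, read 482.6 and 482.0 in the WT arrays and 455.2 and 445.3 in the FtMT-Adip arrays, with -0.14. Eif2b4, the delta subunit, read 729.6 and 644.4 on the WT arrays, against 653.5 and 656.4 on the FtMT-Adip arrays, with -0.10. The groups of Eif2b2 and Eif2b3 were apart before normalization as well, whereas those of Eif2b4 were apart only after it. Eif2b5, the catalytic epsilon subunit, had 3 probes at -0.19 to 0.07, the brightest of which read 1330.1 and 1235.7 in the WT arrays and 1117.2 and 1291.5 in the FtMT-Adip arrays. With the authors' normalized values Eif2b3 and Eif2b4 turned to 0.27 and 0.20, so the downward lean of those subunits depends on the normalization.

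In the cap-binding machinery the helicase and the scaffold pointed in opposite directions, each with a pair of probes. Eif4a1, the main eIF4A helicase, read 5844.4 and 4984.2 on the WT arrays, against 7391.4 and 7099.4 on the FtMT-Adip arrays (ILMN_2959480, probe A). Both FtMT-Adip arrays were higher, with a log2 change of 0.48 (SE 0.135, 95% interval 0.17 to 0.78) and a limma adjusted p of 0.0718. Its other probe (ILMN_2618481, probe B) read 1293.0 and 1406.5 in the WT arrays and 1631.1 and 1877.6 in the FtMT-Adip arrays, with 0.44 (SE 0.158, limma adjusted p = 0.140).

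Eif4g1, the scaffold that joins eIF4E, eIF4A and the ribosome, read 1296.8 and 1092.3 on the WT arrays, against 870.3 and 941.4 on the FtMT-Adip arrays (ILMN_2716514, probe A), a log2 change of -0.39 (SE 0.151, limma adjusted p = 0.175). The other probe (ILMN_3159387, probe B) read 1052.2 and 830.7 in the WT arrays and 664.1 and 665.3 in the FtMT-Adip arrays, with -0.53 (SE 0.161, 95% interval -0.89 to -0.16, limma adjusted p = 0.0917). Neither gene was called by either probe. In both genes both probes had groups that did not overlap and pointed the same way. Of all genes with at least 2 tested probes, 25.1% had every probe apart in the same direction. Over the alternatives run, the brighter probe of Eif4a1 kept a positive value (0.22 to 0.55) and that of Eif4g1 a negative one (-0.50 to -0.32).

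**Figure D3:**
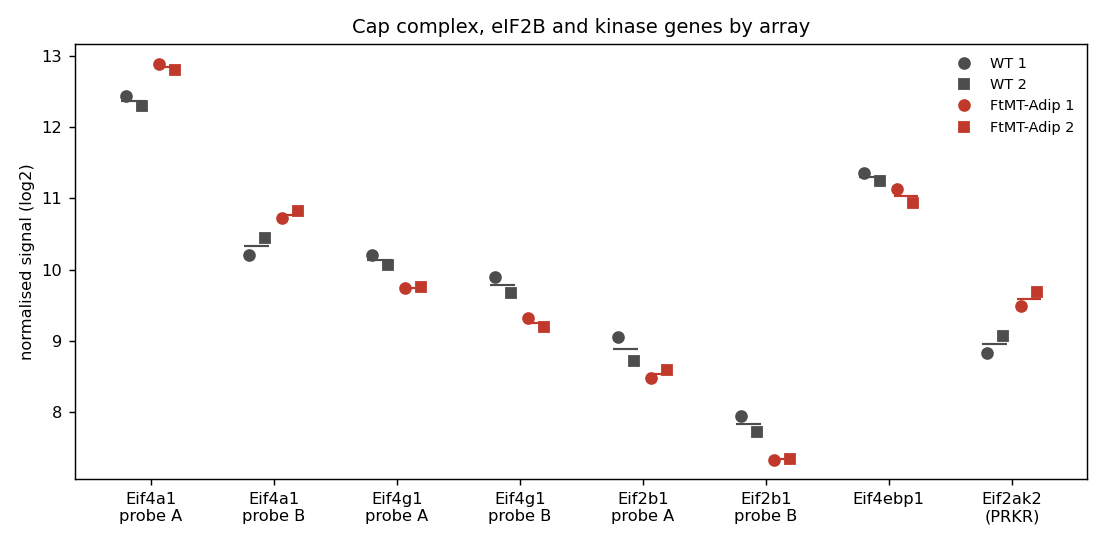
Normalized log2 signal of each array (points; circles are replicate 1 and squares replicate 2, grey WT and red FtMT-Adip; lines are group means of 2 arrays) for genes of the cap complex, eIF2B, the eIF4E-binding protein and PKR. The groups are apart for every probe shown, upward for Eif4a1 and Eif2ak2 and downward for Eif4g1, Eif2b1 and Eif4ebp1, and none of these probes passed an adjusted p of 0.05. Of all tested probes, 51.5% had groups apart.

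The promoters of Eif4a1 and Eif4g1 are printed because these genes had, after Eif2s3y, the largest values in each direction among members whose probes were all apart in the same direction, a choice made after their values were seen. Capitals mark CACGTG, the E-box that factors such as Myc and Usf bind. The Eif4a1 stretch is chr11:69672374-69672673 on the minus strand, with the motif starting at -189 from the gene's start, and that of Eif4g1 is chr16:20672477-20672776 on the plus strand, with the motif at -54 and at 16, both in RefSeq's GRCm38.p6 annotation.
Eif4a1: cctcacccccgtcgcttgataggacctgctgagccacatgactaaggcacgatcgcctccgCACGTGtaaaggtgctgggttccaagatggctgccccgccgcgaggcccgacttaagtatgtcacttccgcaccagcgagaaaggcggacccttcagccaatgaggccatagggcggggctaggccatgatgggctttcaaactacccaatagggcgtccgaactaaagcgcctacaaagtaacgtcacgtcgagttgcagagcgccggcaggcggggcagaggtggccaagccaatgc
Eif4g1: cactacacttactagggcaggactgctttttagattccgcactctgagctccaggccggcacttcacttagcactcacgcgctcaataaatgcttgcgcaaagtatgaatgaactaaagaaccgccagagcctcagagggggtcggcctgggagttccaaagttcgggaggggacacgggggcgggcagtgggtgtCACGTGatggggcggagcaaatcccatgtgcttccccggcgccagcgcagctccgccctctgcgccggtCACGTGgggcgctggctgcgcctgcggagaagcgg

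Across the initiation factors, 35 of the 45 genes had a promoter in the RefSeq table, and 7 of them held CACGTG (Eif3a, Eif3f, Eif4a1, Eif4e, Eif4g1, Eif5a and Eif5a2), where 7.15% of all 32851 promoters in the table hold it. TGATGNAA, a form of the composite element bound by C/EBP and ATF proteins such as ATF4, was in 1 of the 35 genes (Eif2s3x) and in 3.97% of all promoters. The cAMP response element TGACGTCA (1.79% of all promoters) and ATTGCATCA (0.192%), whose reverse strand contains a TGATGNAA match, were in none of them. GAAANNGAA, a short form of the interferon-stimulated response element, was in Eif2s1, Eif2s3x and Eif3a and in 8.56% of all promoters. Each motif was searched on both strands, and a gene counts when any of its promoters holds the letters, so genes with several promoters have more chances than single promoters do. These matches are letters in a window and say nothing of binding.

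The other cap-complex genes had no called probe. Eif4e, the cap-binding protein itself, read 142.8 and 143.9 on the WT arrays, against 142.7 and 135.0 on the FtMT-Adip arrays, with a log2 change of -0.09 (95% interval -0.35 to 0.17). Eif4e2, a cap-binding relative that represses translation, had 3 probes at -0.06 or -0.05. Eif4a2, the second eIF4A helicase, had 4 tested probes between -0.11 and 0.23 with overlapping groups, and its brightest read 4303.5 and 2774.2 in the WT arrays and 3441.4 and 4155.9 in the FtMT-Adip arrays. Eif4b, which stimulates the helicase, read 147.4 and 177.1 on the WT arrays, against 187.5 and 186.3 on the FtMT-Adip arrays, with 0.26 (limma adjusted p = 0.399). Both of its probes had groups apart, although the dimmer was above background only in FtMT-Adip, where it was at least 1.09-fold higher. Eif4g2, a relative of eIF4G that does not bind eIF4E, read 514.8 and 468.6 in the WT arrays and 457.4 and 618.5 in the FtMT-Adip arrays, with 0.09 and overlapping groups. Its second probe gave 0.18 with groups apart, and another probe listed as E130105L11RIK, outside the rule, read 1053.1 and 890.0 in WT 1 and WT 2 and 1110.8 and 1292.3 in FtMT-Adip 1 and 2, with 0.35 (limma adjusted p = 0.233) and groups apart. Eif4e1b, a germ cell form, was below background, and Eif4g3 was not analysed here.

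Transcripts of the eIF4E-binding proteins gave no call. Eif4ebp1, the binding protein abundant in fat, read 2856.1 and 2467.6 on the WT arrays, against 2120.9 and 2037.2 on the FtMT-Adip arrays. Both FtMT-Adip arrays were below both WT arrays, with a log2 change of -0.27 (SE 0.151, 95% interval -0.62 to 0.07, limma adjusted p = 0.347). The adipocyte markers described above moved the same way, and whether the share of adipocyte RNA plays a part in the Eif4ebp1 values was not tested. Eif4ebp2 read 367.5 and 379.5 in the WT arrays and 402.4 and 370.4 in the FtMT-Adip arrays, with overlapping groups and 0.02 (95% interval -0.34 to 0.39). Eif4ebp3 was below background on every array. Eif4enif1, which carries eIF4E into the nucleus and into RNA granules, had probes at -0.10 and 0.00.

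Subunits of eIF3, the large scaffold on the small ribosomal subunit, stayed close to 0. Of 11 genes with 23 probes, 17 probes of 10 genes were tested and none was called, with 11 positive and 6 negative values between -0.34 and 0.24. The lowest was Eif3l, listed as EIF3S6IP, which read 3973.3 and 4127.2 on the WT arrays, against 3176.9 and 2941.8 on the FtMT-Adip arrays. Both of its probes were lower in both FtMT-Adip arrays, at -0.34 (SE 0.153, limma adjusted p = 0.242) and -0.28 (limma adjusted p = 0.335), but the authors' normalized values gave 0.04 for the brighter probe. Eif3j1, a loosely bound subunit, read 144.7 and 134.1 in the WT arrays and 125.5 and 123.5 in the FtMT-Adip arrays, with -0.27 (SE 0.102, limma adjusted p = 0.165). FtMT-Adip 2 was below background for this probe, and the second probe of Eif3j1 was below it on every array.

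On the other side, Eif3d, a subunit that can bind the cap of some messenger RNAs, read 2388.4 and 2009.1 on the WT arrays, against 2424.0 and 2463.6 on the FtMT-Adip arrays, with 0.24 (95% interval -0.10 to 0.57). Eif3i read 6205.9 and 5644.7 in the WT arrays and 6452.5 and 6395.4 in the FtMT-Adip arrays, with 0.21 and its other probes at 0.15 and 0.00. Eif3a, the largest subunit, read 459.9 and 475.5 on the WT arrays, against 528.0 and 549.7 on the FtMT-Adip arrays, with 0.19, while its second probe gave -0.09. Brightest probes of Eif3b, Eif3c, Eif3f and Eif3g lay between 0.10 and 0.12, that of Eif3h at -0.07, and Eif3e was not tested.

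Factors of scanning and subunit joining had positive values only, none of them called. Eif1a, which helps the ribosome scan to the start codon, read 977.7 and 905.0 in the WT arrays and 1027.8 and 1274.7 in the FtMT-Adip arrays, with 0.32 (SE 0.156, limma adjusted p = 0.290). Eif5, which triggers GTP hydrolysis by eIF2 at the start codon, read 3915.9 and 3329.3 on the WT arrays, against 3601.1 and 4892.8 on the FtMT-Adip arrays, with 0.29 (limma adjusted p = 0.347) and its 2 other probes at 0.22 and 0.14. The authors' normalized values gave -0.08 for Eif1a, and those for Eif5 remained positive. Eif1ax and Eif5b, which joins the large subunit, were not tested.

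Eif5a, a factor with the modified residue hypusine that acts mainly in elongation despite its name, read 2062.6 and 1988.6 in the WT arrays and 2653.4 and 2253.7 in the FtMT-Adip arrays. Both FtMT-Adip arrays were higher, with 0.34 (SE 0.166, limma adjusted p = 0.282), but its 2 other probes gave 0.22 and -0.14. Dhps, the enzyme of the first step of hypusine synthesis, read 300.6 and 271.0 on the WT arrays, against 365.2 and 398.8 on the FtMT-Adip arrays, with 0.46 (SE 0.147, limma adjusted p = 0.107). Dohh, the enzyme of the second step, gave 0.06. Eif5a2 was below background.

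The Argonaute genes, whose proteins carry microRNAs and are not initiation factors, were dim. Ago4, listed as EIF2C4, read 119.2 and 116.5 in the WT arrays and 134.8 and 135.8 in the FtMT-Adip arrays. It was above background only in FtMT-Adip, so it entered the test through the group where it was high, and it was at least 1.18-fold higher there (fitted log2 change 0.30, SE 0.0904, limma adjusted p = 0.0925). Ago2, the catalytic member, gave 0.09, 4 probes of Ago3 lay between -0.10 and -0.02, and Ago1 was below background.

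Probes of the same gene agreed in sign for 16 of the 21 genes with at least 2 tested probes, where 64.4% of all such genes on the array did. The exceptions were Eif2b5, Eif3a, Eif3i, Eif4a2 and Eif5a. In 6 genes (Eif2b1, Eif2s3y, Eif3l, Eif4a1, Eif4b and Eif4g1) every tested probe had groups apart in the same direction on the normalized scale, as in 25.1% of all such genes. For Eif2s3y and Eif4b, a probe counted here had entered the test through the group where it was high. The Eif2s3y probes differed in size, at -2.15 and -0.03. Probes of a gene share the same 4 RNA samples and are not replicates.

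Some initiation factor genes are listed under other names, which the rule does not take. Eif6, which keeps the ribosomal subunits apart and is listed as ITGB4BP, read 1037.1 and 1113.1 on the WT arrays, against 1519.6 and 1422.3 on the FtMT-Adip arrays, with 0.52 (SE 0.164, limma adjusted p = 0.104), while a dimmer probe gave 0.03. Eif4e3, a cap-binding relative listed as 1300018P11RIK, had 3 probes at -0.41, -0.37 and -0.22. None of the tested probes for Eif6 and Eif4e3 was called.

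Genes around the initiation factors were taken from lists by role. In a list of eIF2alpha phosphatase genes, modulators of the eIF2 kinases and related genes, 2 of 17 tested genes rose and none fell, with a median log2 change of 0.09. Ppp1r15a, the stress-induced subunit (GADD34) of the phosphatase that removes the phosphate from eIF2alpha, read 311.0 and 267.2 on the WT arrays, against 767.7 and 667.9 on the FtMT-Adip arrays, a change of 1.45 (SE 0.175, limma adjusted p = 0.00235). Trib3, a pseudokinase induced by ATF4 and CHOP, read 244.2 and 236.4 in the WT arrays and 1404.6 and 1316.5 in the FtMT-Adip arrays, a change of 2.77 (limma adjusted p = 0.000347). Both genes stayed called without each array in turn and with the authors' normalized values. Ppp1r15b, the constitutive counterpart of Ppp1r15a, gave 0.26 (limma adjusted p = 0.296). Dele1 and Oma1, which relay mitochondrial stress to HRI, gave 0.23 (limma adjusted p = 0.470) and -0.08 (limma adjusted p = 0.847).

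Of the 23 tested targets of ATF4 and CHOP, 13 rose and 2 fell, with a median of 0.64, and Trib3 belongs to this list too. Atf4 itself read 1550.0 and 1134.2 on the WT arrays, against 2431.5 and 2480.1 on the FtMT-Adip arrays, a change of 0.97 (limma adjusted p = 0.0101). The largest changes of the list were those of Gdf15 (4.36), Trib3 (2.77), Ddit3, which encodes CHOP (2.21), and Fgf21 (2.10). Phgdh, the first enzyme of serine synthesis, and Vldlr, a lipoprotein receptor, fell by 0.82 and 0.97 on the log2 scale. The call of Phgdh was lost without WT 1 or FtMT-Adip 1, and that of Vldlr without WT 2 or FtMT-Adip 1. Among the genes that rose, the calls of Atf5, Slc7a5 and Cebpb were lost in some fits that left out an array. That of Shmt2 was lost in each of them. With the authors' normalized values the calls of Atf4, Atf5, Shmt2 and Cebpb were lost. Gdf15, Trib3, Ddit3 and Fgf21 stayed called in all of these fits. The initiation factor and kinase transcripts upstream of these targets were called in no case other than Eif2s3y. Levels of phosphorylated eIF2 were not measured.

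In the control of eIF4E and the ribosomal S6 kinases through mTORC1 and MNK, 2 of 19 tested genes rose and 1 fell, with a median of 0.07. Rragd, a GTPase that brings mTORC1 to lysosomes, was below background on both WT arrays, entered the test through FtMT-Adip and was at least 1.49-fold higher there (limma adjusted p = 0.00427). Ddit4l, an mTORC1 inhibitor, changed by 0.65 (limma adjusted p = 0.0141). Castor1, an arginine sensor, fell by 0.90 on the log2 scale (limma adjusted p = 0.0224). The calls of Ddit4l and Castor1 were lost without WT 2 or without FtMT-Adip 1, all 3 were lost with the authors' normalized values, and without FtMT-Adip 2 the list had 2 genes called lower. Mtor read 537.9 and 351.9 in the WT arrays and 388.0 and 493.6 in the FtMT-Adip arrays, with -0.01.

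Among 13 tested partners of poly(A) binding and scanning, Pabpc4, an inducible poly(A)-binding protein, rose by 0.76 (limma adjusted p = 0.0198) and the median was -0.05. It read 1084.9 and 1143.2 on the WT arrays, against 1664.2 and 1917.5 on the FtMT-Adip arrays, and its call was lost without WT 1, FtMT-Adip 1 or FtMT-Adip 2. None of 14 elongation and termination factors was called, with a median of 0.11, although 1 was called higher without FtMT-Adip 2 and 1 with the authors' normalized values. The smallest unadjusted p among them belonged to Dhps, described above, and to Eef1a2, the muscle and nerve form of the elongation factor, which read 112.0 and 123.4 in the WT arrays and 182.7 and 133.9 in the FtMT-Adip arrays. FtMT-Adip 1, the array with the highest skeletal muscle markers, was also the highest for Eef1a2 (log2 change 0.61, limma adjusted p = 0.12), and the part of muscle RNA was not tested. The mitochondrial initiation factors Mtif2 and Mtif3 gave -0.02 and 0.10.

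**Figure D4:**
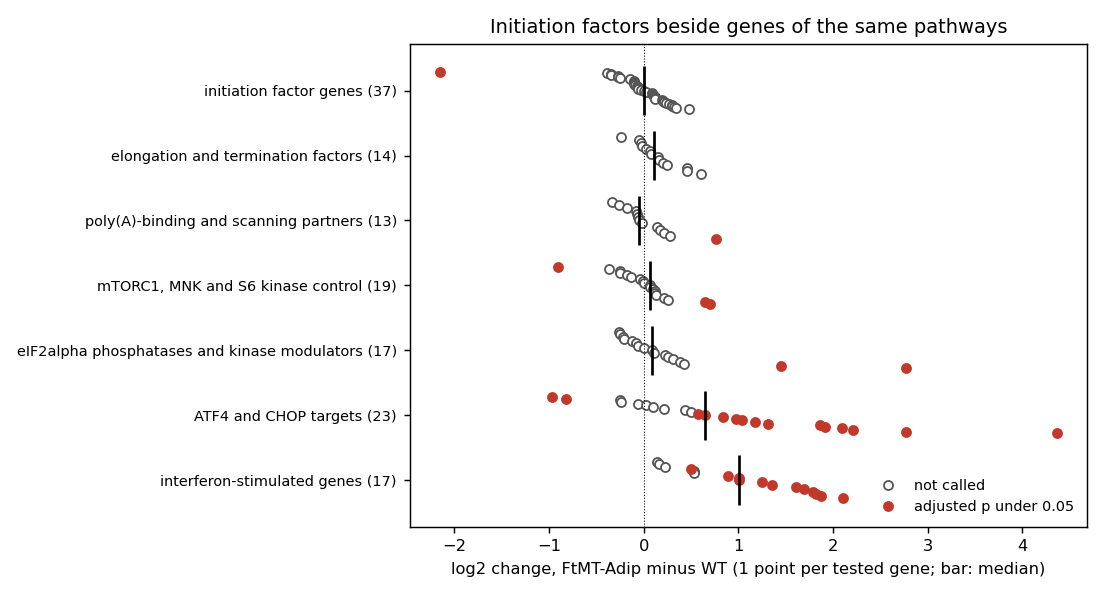
Log2 change (FtMT-Adip minus WT, horizontal axis) of the tested initiation factor genes and of genes on 6 related lists, 1 point per gene, with filled red points for adjusted p under 0.05 and bars for medians. Initiation factors lie around 0.00 with a single called gene, elongation, poly(A) and mTORC1 lists have medians of 0.11, -0.05 and 0.07, and ATF4 and CHOP targets and interferon-stimulated genes have medians of 0.64 and 1.01.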

How the data were processed

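Per the labels' protocols, biotin-labelled total RNA (Trizol, DNase I) was read on Illumina BeadChips. They name the MouseRef-8 v2 chip, while each array has 45281 probes here, which leaves the chip type unsettled. The authors deposited intensity values on a linear scale, not normalized per the file headers and with background not subtracted, and a second table of intensity values called normalized. How it was normalized is not given in the sources used here. Values of that table under 1 were set to 1 before log2.

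From the non-normalized intensity, normexp background correction (offset 50), quantile normalization and log2 were computed with limma 3.58.1 in R 4.3.3. The plan preferred neqc, but no detection p-value was used here, and normexp with quantile normalization was its fallback. Probes above background on at least 2 of 4 arrays were tested (lmFit, eBayes with a variance trend, prior degrees of freedom 6.86). The fit was tested on simulated data. The number of arrays limits the precision.

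Target names were matched to RefSeq symbols of GRCm38.p6: of the 46 names, 29 by symbol and 17 by synonym. A gene is represented by its brightest tested probe. Every member may be named. The eIF2, eIF2B, kinase, cap-complex and eIF4E-binding genes are given in full, and from each related list up to 4 called genes by size, or the 2 of smallest p. Ftmt, Dele1, Oma1, Ppp1r15b, Mtor, Dohh, Atf4, Phgdh and Vldlr were named beside that rule, and 1 result that the rule covers is not reported here. Members and lists were chosen with earlier results of these data known. Sequences were read with Python.

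Shares over genes with several probes were computed over matched names. Alternatives were an offset of 16, no background correction, median scaling, cyclic loess, the authors' normalized values, no filter, a 4-array filter, no variance trend, the replicate number as a block, an equal-variance test for each probe and leaving out each array.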

Additional observations from a re-analysis of the deposited data

How the results depend on the processing

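No member was called higher under any alternative. The single call for a lower member, Eif2s3y, remained in every limma fit that tested it (log2 change -2.99 to -1.60, adjusted p 0.000157 to 0.0113). The count was 0 when only probes above background on all 4 arrays were tested, since both FtMT-Adip arrays of that probe are below it, and 0 with the equal-variance test for each probe. Leaving out 1 array at a time gave 1 lower member each time, and between 318 (without FtMT-Adip 1) and 760 (without FtMT-Adip 2) higher and between 344 and 831 lower probes over the whole array, with 366 and 535 without WT 1. The authors' normalized values gave 323 higher and 372 lower calls, and the equal-variance test 1 and 1. The cause of these differences was not tested.

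Of 506 values of member genes, from the alternatives or from a gene's other tested probes, 38 had the opposite sign to the main value. They fell in 24 genes that were not called. The largest absolute log2 change of these genes in the main fit was 0.341. The changes of filter, the fit without a variance trend and the replicate block leave a probe's log2 change as it is. Values under those settings could not change sign, and a sign that differs between probes is not an effect of the processing. The widest ranges included Eif2ak3 (-0.39 to 0.39) and Eif4a2 (-0.26 to 0.48). Across probes, the deviations of same-numbered arrays had a correlation of -0.0793. It rests on a single difference between arrays in each group, so it cannot tell whether same-numbered arrays were processed together. The fit with the replicate block called 1225 probes against 1548, with 1 lower member as before. A member below background on an array, such as Eif2s1, has only an upper bound there, so a fall of such a probe could not be measured.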
